A study of Mus musculus with 6 samples.

Results

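The miR-23, miR-27 and miR-24 microRNAs come from a pair of paralogous gene clusters, and 8 rows of the deposited table belong to them out of 1482 rows in all. They are mmu-miR-23a-3p, mmu-miR-23b-3p, mmu-miR-27a-3p, mmu-miR-27b-3p, mmu-miR-24-3p, mmu-miR-24-2-5p, mmu-miR-3074-5p and mmu-miR-3074-2-3p. The first 6 were chosen by name as products of the miR-23a/27a/24-2 and miR-23b/27b/24-1 clusters. This choice was made with earlier results of these data known. The 2 miR-3074 rows were chosen from their read counts, which nearly copy those of miR-24 on the opposite strand, so they are described and not tested.

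The libraries came from mouse spinal cord collected on day 2 after surgery, 3 labelled SCI (spinal cord injury) and 3 labelled control, with 1 mouse per library as the design text is read here. By their description, the SCI-labelled mice had a laminectomy at T10 and a moderate contusion there, made by a 10 g weight falling 20 mm. By the same description the control-labelled mice had the T10 laminectomy with no contusion, so both groups would share the opening of the vertebral canal. About 1 cm of cord around T10 was used, and the sources used here do not name the strain, sex or age.

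A cluster of this kind is transcribed as 1 long precursor. Hairpins are cut out of it, and each hairpin can give a 5p and a 3p mature microRNA of which usually one is kept. A mature microRNA silences messenger RNAs mainly through its seed, the bases near its 5′ end, so paralogs with 1 seed can share many targets. The miR-23a/27a/24-2 and miR-23b/27b/24-1 clusters are found across vertebrates and are well known from endothelium, where miR-23 and miR-27 promote vessel sprouting by lowering Sprouty2 and Sema6A. In neurons, miR-23 and miR-27 have been described as brakes on cell death genes such as Apaf1.

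The following sequences are shown because they tell which products share a seed and which are reverse complements of each other. Each is the RefSeq mature sequence on GRCm38, written 5′ to 3′ with the seed (bases 2 to 8) in capitals, and 7 of the 8 rows matched an entry (miR-23b-3p did not).
miR-23a-3p: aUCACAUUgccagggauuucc
miR-27a-3p: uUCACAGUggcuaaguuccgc
miR-27b-3p: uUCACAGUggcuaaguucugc
miR-24-3p: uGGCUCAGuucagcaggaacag
miR-24-2-5p: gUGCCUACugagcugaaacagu
miR-24-1-5p: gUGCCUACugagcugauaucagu
miR-3074-5p: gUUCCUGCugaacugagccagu
miR-3074-2-3p: uGUUUCAGcucaguaggcac

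The miR-27 paralogs share their seed and 20 of 21 bases. They differ by C19U, with positions counted from 1 at the 5′ end of miR-27a-3p and its base written first. No other row of the table with a RefSeq mature sequence has the miR-27 seed, the miR-23a seed or the miR-24-3p seed. The 5p arms of the miR-24 hairpins share their seed and are identical over their first 16 bases. In the other direction, 20 of the 22 bases of miR-24-3p lie in the reverse complement of miR-3074-5p, and 20 of the 22 bases of miR-24-2-5p in that of miR-3074-2-3p. How the authors treated mismatches, strand and reads that match several rows is not given in the sources used here, and it decides how such near-identical rows share reads. Values of the miR-27 paralogs, of the 5p arms of the miR-24 hairpins, and of miR-24 against miR-3074, are uncertain to that extent. The miR-23 paralogs could not be compared by sequence, since miR-23b-3p matched no entry. The same limit may therefore hold for their values and their ratio.

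In GENCODE M21 (GRCm38, the assembly that mm10 names) the miR-23a/27a/24-2 cluster spans chr8:84208518-84208921 on the plus strand. It lies between annotated genes, except that 2 bases of Mir24-2 overlap an exon of the long noncoding RNA Gm26532. The miR-23b/27b/24-1 cluster spans chr13:63300484-63301275 on the plus strand, inside the protein-coding gene 2010111I01Rik and opposite to an intron of Fancc. Mir23b lies in an intron of 2010111I01Rik, and Mir27b and Mir24-1 overlap an annotated exon of it. Mir3074-2 and Mir3074-1 lie on the minus strands of the same places. miR-24-3p is encoded in both clusters with 1 sequence, so its row adds both up, while miR-24-2-5p belongs to the chr8 cluster and miR-24-1-5p to the chr13 cluster.

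The SCI-labelled libraries held 7899382, 7100472 and 8889977 counts and the control-labelled libraries 6595364, 5568491 and 7360149. MicroRNAs known to rise after injury ran against the labels, and the table heads the columns of the SCI-labelled libraries with the word Normal. miR-21a-5p, widely reported to rise in injured tissue, was at 12741, 11198 and 12069 CPM in the SCI-labelled libraries, against 129161, 95985 and 75102 CPM in the control-labelled libraries. miR-223-3p, a microRNA of neutrophils, was at 5.70, 10.7 and 8.95 CPM in the SCI-labelled libraries, against 112.9, 132.5 and 95.3 CPM in the control-labelled libraries. For this reason the groups are called by their labels throughout, and every direction below is that of the labels. The surgery given above for each group rests on the same labels and may not hold for these libraries. Control-labelled library 3 also stood apart, since its muscle microRNAs (miR-1a-3p, miR-133a-3p and miR-206-3p) summed to 37664 CPM against 8273 and 11903 CPM in the other control-labelled libraries. CPM here is each count over its library's sum in the 614 rows that passed the filter on low counts described below. It is put on a common scale and adjusted by TMM, a factor that evens out composition between libraries.

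Of the 6 cluster rows with a test, 4 were lower in the SCI-labelled libraries, 0 were higher and 2 did not pass. The 4 were both miR-23 paralogs and both miR-27 paralogs. edgeR was run on the 614 rows that passed a filter on low counts, with its quasi-likelihood test. Of these rows, 39.4% passed at an adjusted p of 0.05, 23.1% lower and 16.3% higher in the SCI-labelled libraries. The median log2 change was -0.70 over the 6 rows and -0.07 over all 614. The 6 rows were chosen with earlier results of these data known, so their contrast with all rows is a description. All 8 cluster rows passed the filter. The share of all 614 rows whose groups did not overlap was not counted. Lack of overlap is therefore given below, and in the figures, only as a description. Without control-labelled library 3, which stood apart, the 4 rows kept their direction and their edgeR call. Their log2 changes were then -1.83 for miR-23a-3p, -1.06 for miR-23b-3p, -0.88 for miR-27a-3p and -0.49 for miR-27b-3p (edgeR adjusted p = 1.06e-05, 0.000349, 0.00165 and 0.0174).

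**Figure D1:**
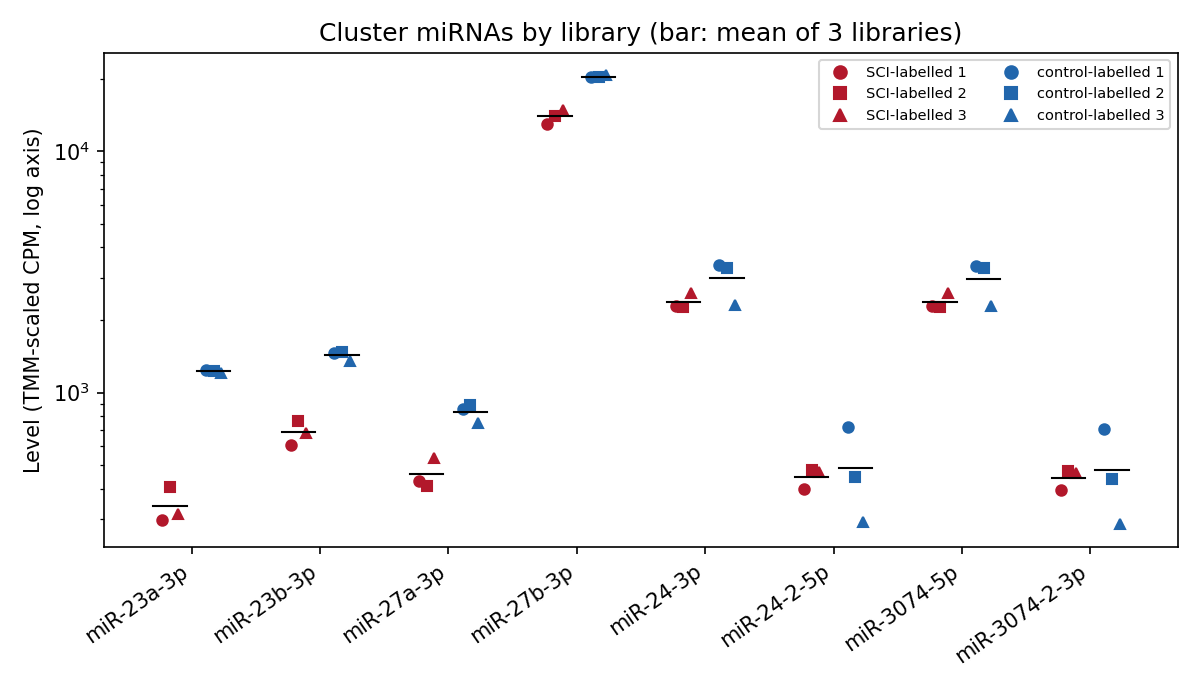
Level of each listed cluster microRNA in every library, as TMM-scaled CPM on a log axis, with SCI-labelled libraries in red on the left and control-labelled libraries in blue on the right of each pair. Points are libraries and bars are means of 3. The groups are apart for miR-23 and miR-27 and overlap for the miR-24 and miR-3074 rows.

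miR-27b-3p was the most abundant of the cluster products in both groups, and of the 6 tested rows it had the narrowest spread relative to its mean. miR-27 is known for restraining the fat cell regulator Pparg, and miR-27b for lowering Pax3 in muscle precursors. miR-27b-3p stood at 13036, 14025 and 14899 CPM in the SCI-labelled libraries, against 20278, 20271 and 20636 CPM in the control-labelled libraries. Every SCI-labelled library was below every control-labelled library. The mean was 13986 ± 932 CPM in the SCI-labelled libraries and 20395 ± 209 CPM in the control-labelled libraries (SD, n = 3 each). The log2 change was -0.54 (SE 0.16), a level 1.46-fold lower in the SCI-labelled libraries (edgeR adjusted p = 0.0251). This call was lost by edgeR without SCI-labelled library 1 (adjusted p = 0.138), 2 (0.133) or 3 (0.0904), without control-labelled library 1 (0.0747), with upper-quartile scaling (0.101) and with no filter (0.0893).

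miR-27a-3p, its paralog from chr8, was far less abundant and was also lower. It stood at 431, 412 and 538 CPM in the SCI-labelled libraries, against 858, 886 and 750 CPM in the control-labelled libraries. The groups did not overlap, and the nearest libraries were SCI-labelled library 3 and control-labelled library 3. This was a log2 change of -0.85 (SE 0.19), a level 1.81-fold lower (edgeR adjusted p = 0.00915). The edgeR adjusted p was 0.0532 without SCI-labelled library 1 and 0.0695 without SCI-labelled library 2, so the call was lost without either.

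miR-23a-3p had the largest difference among the listed rows. miR-23a is known as a repressor of lamin B1 in oligodendrocytes, where it favours myelin formation. The row stood at 296, 407 and 313.5 CPM in the SCI-labelled libraries, against 1247, 1227 and 1209 CPM in the control-labelled libraries. All 3 SCI-labelled values were less than the lowest control-labelled value, and the control-labelled values were close together. The mean was 339 ± 59.9 CPM in the SCI-labelled libraries and 1228 ± 19.2 CPM in the control-labelled libraries (SD, n = 3 each). The difference was -1.86 on the log2 scale (SE 0.20), 3.62-fold lower (edgeR adjusted p = 0.00031).

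miR-23b-3p, which shares the name and cluster position of miR-23a-3p on chr13, was lower as well. It stood at 608, 766 and 679 CPM in the SCI-labelled libraries, against 1459, 1476 and 1356 CPM in the control-labelled libraries. The groups were apart here too. Its log2 change was -1.06 (SE 0.18), 2.09-fold lower (edgeR adjusted p = 0.00208). The calls of miR-23a-3p and miR-23b-3p held in every alternative scaling, filter, tool and omission run, with log2 changes of -1.95 to -1.74 for miR-23a-3p and -1.10 to -0.96 for miR-23b-3p over the fits that left out 1 library.

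miR-24-3p, which is cut from the same precursors as miR-23 and miR-27, did not pass the test. It is known for holding back cell cycle genes in human cells and, in mouse heart muscle, the cell death gene Bim. It stood at 2284, 2270 and 2586 CPM in the SCI-labelled libraries, against 3366, 3291 and 2308 CPM in the control-labelled libraries. Control-labelled library 3 lay among the SCI-labelled libraries, and the other 2 control-labelled libraries lay above them all. The row's log2 change was -0.33 (SE 0.20; edgeR adjusted p = 0.228). Without control-labelled library 3 it was -0.44 and passed (edgeR adjusted p = 0.0387), beside -0.49 for miR-27b-3p in that fit. With all libraries miR-27b-3p was at -0.54 (SE 0.16), so the missed call alone does not set miR-24-3p apart from miR-27b-3p. A ratio of miR-24-3p to miR-27 was not tested.

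miR-24-2-5p, the opposite arm from the chr8 hairpin, was at 400, 476 and 468 CPM in the SCI-labelled libraries, against 719, 447 and 290 CPM in the control-labelled libraries. The control-labelled libraries lay on both sides of the SCI-labelled ones. The log2 change was -0.12 (SE 0.31; edgeR adjusted p = 0.779), and its sign depended on which control-labelled library was left out. It was -0.34 without library 3 and 0.34 without library 1 (edgeR adjusted p = 0.214 and 0.345).

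The cluster products can also be ordered by their levels. Among SCI-labelled libraries the order of mean CPM was miR-27b-3p, miR-24-3p, miR-23b-3p, miR-27a-3p, miR-24-2-5p and miR-23a-3p. The ranges of miR-27a-3p, miR-24-2-5p and miR-23a-3p overlapped from neighbour to neighbour, so their order is not settled by these libraries. Among control-labelled libraries it was miR-27b-3p, miR-24-3p, miR-23b-3p, miR-23a-3p, miR-27a-3p and miR-24-2-5p, with no overlap between neighbours. CPM holds no term for length, and the mature sequences printed for these rows are 21 or 22 bases long. How readily each microRNA enters a library also differs, so these orders are of reads.

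Ratios of read counts within 1 library do not depend on library scaling, and 6 pairs of cluster products were compared in this way. Reads of miR-23a-3p per read of miR-23b-3p were 0.487, 0.532 and 0.462 in the SCI-labelled libraries, against 0.855, 0.831 and 0.891 in the control-labelled libraries. The log2 ratio differed by -0.80 between the groups, which did not overlap. With 3 libraries against 3, an exact two-sided permutation test cannot go below 0.1, and it gave p = 0.1 (0.12 after adjustment over the 6 pairs). The test of each row against its seed group across the table missed the threshold for miR-23a-3p, which deviated from the miR-23 pair by -0.48 on the log2 scale (edgeR diffSpliceDGE adjusted p = 0.468). That test called 11.7% of 154 rows in 58 seed groups, and miR-23b-3p joined its group by name.

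The miR-27 pair was compared in the same way. Reads of miR-27a-3p were 3.30%, 2.94% and 3.61% of those of miR-27b-3p in the SCI-labelled libraries, against 4.23%, 4.37% and 3.64% in the control-labelled libraries. The highest SCI-labelled value and the lowest control-labelled value nearly met. The log2 ratio differed by -0.31 (exact permutation p = 0.1, the smallest possible, and 0.12 adjusted). miR-27a-3p deviated from its seed group by -0.30 (edgeR diffSpliceDGE adjusted p = 0.800).

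miR-23 and miR-27 can be set against each other within a cluster. On chr8, reads of miR-23a-3p per read of miR-27a-3p were 0.687, 0.990 and 0.583 in the SCI-labelled libraries, against 1.45, 1.385 and 1.61 in the control-labelled libraries. miR-27a-3p outnumbered miR-23a-3p in all SCI-labelled libraries and in no control-labelled library. On chr13, reads of miR-23b-3p were 4.66%, 5.46% and 4.56% of those of miR-27b-3p in the SCI-labelled libraries, against 7.20%, 7.28% and 6.57% in the control-labelled libraries. The log2 ratio of miR-23 to miR-27 differed by -1.01 in the chr8 cluster and by -0.52 in the chr13 cluster, with no overlap of groups in either (exact permutation p = 0.1 each, the smallest possible, and 0.12 adjusted).

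miR-24-3p was set against both miR-23 paralogs. Reads of miR-24-3p per read of both miR-23 paralogs together were 2.53, 1.94 and 2.61 in the SCI-labelled libraries, against 1.24, 1.22 and 0.8999 in the control-labelled libraries. The log2 ratio differed by 1.08, and 0.92 without control-labelled library 3, and the groups did not overlap (exact permutation p = 0.1, the smallest possible, and 0.12 adjusted). The ratio of miR-24-2-5p to miR-24-3p differed by 0.29 with overlapping groups (exact permutation p = 0.4, and 0.4 adjusted).

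**Figure D2:**
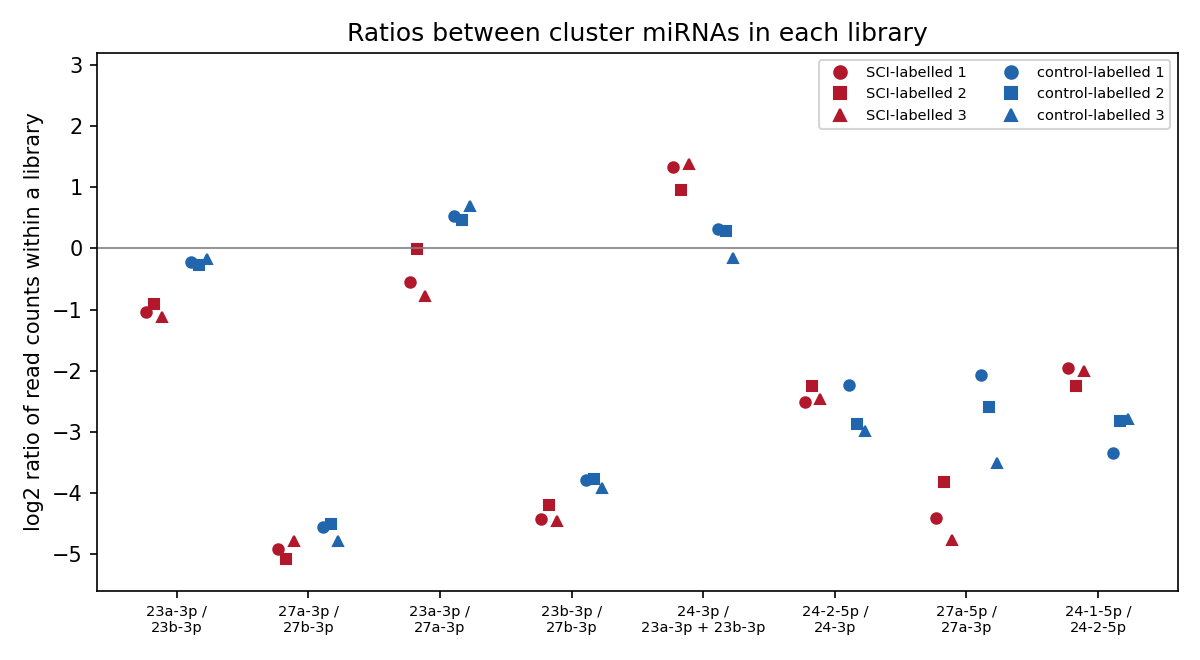
Log2 ratio of read counts between pairs of cluster microRNAs within each library, with SCI-labelled libraries in red on the left and control-labelled libraries in blue on the right of each pair. The miR-23a-3p to miR-23b-3p ratio is 0.462 to 0.532 in the SCI-labelled libraries and 0.831 to 0.891 in the control-labelled libraries, while the miR-24-2-5p to miR-24-3p ratios overlap.

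The remaining mature products of the clusters are 6 rows: miR-23a-5p, miR-23b-5p, miR-27a-5p, miR-27b-5p, miR-24-1-5p and miR-3074-1-3p. Of the 5 that passed the filter, 3 were lower and 2 were higher in the SCI-labelled libraries, beside 23.1% and 16.3% of all rows. The 2 higher rows were miR-24-1-5p and miR-3074-1-3p, which lie on opposite strands and are not counted on as separate measurements. miR-23a-5p did not pass the filter, with 1, 0 and 3 counts in the SCI-labelled libraries and 0, 6 and 8 in the control-labelled libraries. miR-23a-3p had 2388 to 2767 counts in the SCI-labelled libraries and 6777 to 10265 in the control-labelled libraries.

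miR-27a-5p, the arm opposite miR-27a-3p, showed the largest difference of the 11 tested cluster products. It stood at 20.3, 29.0 and 19.7 CPM in the SCI-labelled libraries, against 203, 146 and 65.8 CPM in the control-labelled libraries. The groups did not overlap, but control-labelled library 3 was far below the other 2 of its group. Its change was -2.59 on the log2 scale (SE 0.41), 6.02-fold lower (edgeR adjusted p = 0.00157), and -2.89 without control-labelled library 3.

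Both arms of the Mir27a hairpin were lower, and their ratio was not constant. Reads of miR-27a-5p were 4.72%, 7.04% and 3.67% of those of miR-27a-3p in the SCI-labelled libraries, against 23.7%, 16.5% and 8.77% in the control-labelled libraries. This pair was picked after its values were seen and has no test. For Mir27b the same share was 0.129%, 0.148% and 0.122% in the SCI-labelled libraries, against 0.249%, 0.308% and 0.134% in the control-labelled libraries, where library 3 came within the SCI-labelled range.

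miR-27b-5p was at 16.9, 20.8 and 18.1 CPM in the SCI-labelled libraries, against 50.4, 62.5 and 27.7 CPM in the control-labelled libraries (log2 change -1.33, SE 0.31, edgeR adjusted p = 0.00981). miR-23b-5p was rare, with 18, 17 and 20 counts in the SCI-labelled libraries, against 35, 25 and 36 in the control-labelled libraries (log2 change -1.01, SE 0.28; edgeR adjusted p = 0.0228). The miR-23b-5p call was lost with no filter (edgeR adjusted p = 0.0924), and when SCI-labelled library 1 (0.0996), 2 (0.0773) or 3 (0.0970) or control-labelled library 1 (0.0847) was left out. That of miR-27b-5p was lost only without SCI-labelled library 3 (edgeR adjusted p = 0.0529), among the fits that left out 1 library.

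miR-24-1-5p, from the chr13 cluster, was higher in the SCI-labelled libraries, while miR-23b and miR-27b of that cluster were lower. It stood at 103, 99.4 and 117 CPM in the SCI-labelled libraries, against 70.9, 63.4 and 42.2 CPM in the control-labelled libraries. All SCI-labelled libraries were above all control-labelled libraries. The log2 change was 0.85 (SE 0.24), 1.81-fold higher (edgeR adjusted p = 0.0222). Without SCI-labelled library 1, 2 or 3 the edgeR adjusted p was 0.0526, 0.0547 or 0.0769. Without control-labelled library 3 the log2 change was 0.70 and still passed (edgeR adjusted p = 0.0109).

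The 5p arms of both miR-24 hairpins share a seed and were set against each other. They are identical over their first 16 bases, so the limit given above for near-identical rows holds for their ratio. Reads of miR-24-1-5p were 25.7%, 20.9% and 24.9% of those of miR-24-2-5p in the SCI-labelled libraries, against 9.87%, 14.2% and 14.5% in the control-labelled libraries. All 3 SCI-labelled values were above the control-labelled ones, but this ratio too was picked after its values were seen and has no test. In the test across seed groups miR-24-1-5p deviated by 0.83 on the log2 scale and did not pass (edgeR diffSpliceDGE adjusted p = 0.116).

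**Figure D3:**
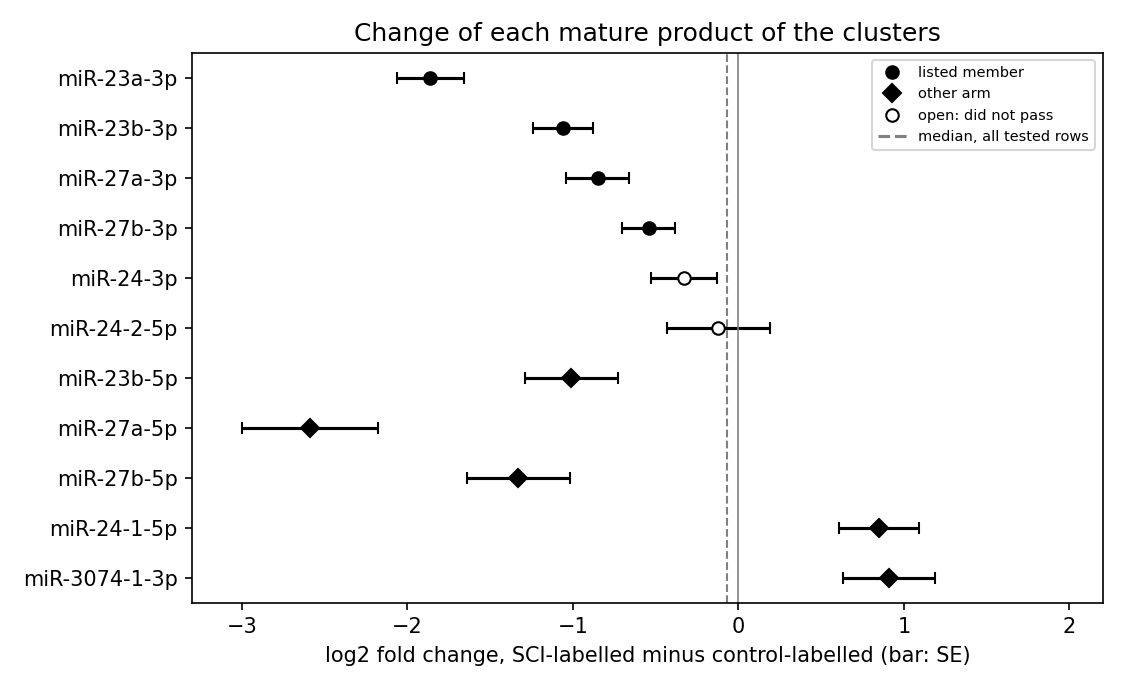
Log2 fold change, SCI-labelled minus control-labelled, of each tested product of the clusters, with its standard error as a bar. Filled symbols passed edgeR's test at an adjusted p of 0.05, open ones did not, circles are listed members and diamonds the other arms. The values run from -2.59 for miR-27a-5p to 0.91 for miR-3074-1-3p, and the dashed line is the median of all tested rows at -0.07.

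The miR-3074 rows are shown as counts, since they were taken in because they repeat miR-24. miR-3074-5p had 18376, 14586 and 22755 counts in the SCI-labelled libraries, against 20930, 18072 and 19436 in the control-labelled libraries. miR-24-3p had 18435, 14646 and 22824 counts in the SCI-labelled libraries, against 21024, 18177 and 19603 in the control-labelled libraries. In each library the miR-3074-5p count was thus 59 to 167 less than the miR-24-3p count, or 99.15% to 99.7% of it.

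The chr8 pair showed the same. miR-3074-2-3p had 3202, 3040 and 4086 counts in the SCI-labelled libraries, against 4411, 2433 and 2417 in the control-labelled libraries. These were 99.0% to 99.3% of the miR-24-2-5p counts in the SCI-labelled libraries and 98.0% to 98.5% in the control-labelled libraries. Their log2 changes (-0.32 for miR-3074-5p and -0.10 for miR-3074-2-3p) are close to the -0.33 of miR-24-3p and the -0.12 of miR-24-2-5p. Whether the same reads were counted in both rows is not recorded in the files, so they are not treated as separate measurements.

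The chr13 pair was less alike. miR-3074-1-3p had 62.9% to 74.8% of the miR-24-1-5p counts in the SCI-labelled libraries and 58.9% to 69.8% in the control-labelled libraries. Its log2 change was 0.91 (SE 0.28; edgeR adjusted p = 0.0331), and it and miR-24-1-5p are likewise not counted on as separate measurements. The edgeR adjusted p of miR-3074-1-3p was 0.0542, 0.0718 and 0.114 without SCI-labelled library 1, 2 and 3, and 0.0670 without control-labelled library 2.

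**Figure D4:**
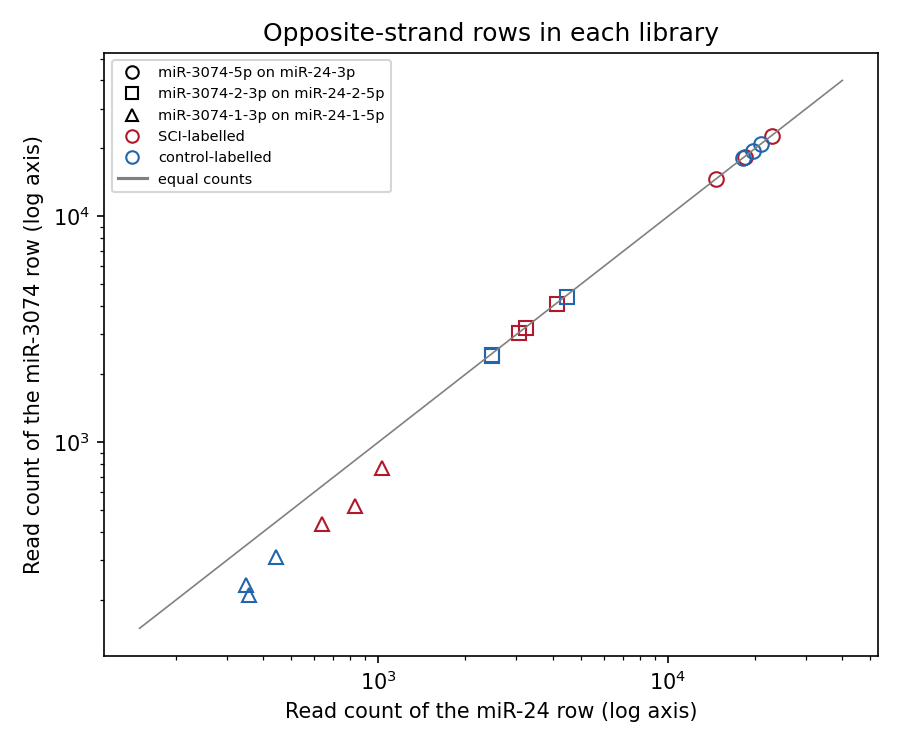
Read count of each miR-3074 row against that of the miR-24 row on the opposite strand, per library, with both axes on a log scale and the line marking equal counts. The miR-3074-5p points lie at 99.15% to 99.7% of miR-24-3p, and the miR-3074-1-3p points at 58.9% to 74.8% of miR-24-1-5p.

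In bulk cord, fewer cells of a type and less microRNA per cell cannot be told apart. Blood cell and fibroblast microRNAs were lower in the SCI-labelled libraries, as were miR-23, miR-27 and 23.1% of all rows. Only this direction was compared. The 4 leukocyte markers (miR-223-3p, miR-142a-3p, miR-142a-5p and miR-150-5p) were all lower, with a summed level of 312 to 431 CPM in the SCI-labelled libraries, against 1700 to 2882 CPM in the control-labelled libraries. The 3 erythroid markers were all lower, at 2443 to 5157 CPM in the SCI-labelled libraries, against 8995 to 32182 CPM in the control-labelled libraries. Both fibroblast markers (miR-199a-3p and miR-214-3p) were lower, at 396 to 769 CPM in the SCI-labelled libraries, against 1366 to 2357 CPM in the control-labelled libraries. These sums varied widely among the control-labelled libraries, where miR-23a-3p ran from 1209 to 1247 CPM and miR-27b-3p from 20271 to 20636 CPM.

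Neuron markers moved the opposite way, and the vessel markers did not pass. Of miR-124-3p, miR-128-3p and miR-218-5p, 2 were higher and 1 did not pass, with summed levels of 29112 to 34869 CPM in the SCI-labelled libraries, against 11514 to 14169 CPM in the control-labelled libraries. The endothelial miR-126a arms summed to 16412 to 18789 CPM in the SCI-labelled libraries, against 12211 to 28514 CPM in the control-labelled libraries, and 0 of 2 passed edgeR's test at an adjusted p of 0.05. The same held for 0 of 2 smooth muscle and pericyte markers, 0 of 3 oligodendrocyte markers and 0 of 3 skeletal muscle markers. In each of these 4 lists 0 rows had an unadjusted edgeR p under 0.05, and DESeq2 and limma voom also called 0. No marker was at 0 counts in any library, and the part of these cell types in the cluster results was not tested.

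Rows with the most similar profile over the 6 libraries were found by the root mean square difference in log2(CPM + 1), each row centred on its own mean, among 258 rows of at least 50 CPM outside the clusters. This is a description with no test. Nearest to miR-23a-3p were miR-203-3p (0.183), miR-152-3p (0.189) and miR-93-5p (0.198), against a median of 1.025 over all 258. Nearest to miR-23b-3p were miR-30a-5p (0.123), miR-222-3p (0.137) and miR-652-3p (0.148), against a median of 0.725.

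For both miR-27a-3p and miR-27b-3p the nearest rows were miR-150-5p, one of the leukocyte markers, and miR-26b-5p. The other leukocyte markers were not among the 3 nearest rows of either. The mean of miR-150-5p was 182 CPM in the SCI-labelled and 282 CPM in the control-labelled libraries, while the leukocyte marker miR-223-3p was 13.5-fold lower. miR-150-5p was at 0.164 from miR-27a-3p and 0.056 from miR-27b-3p, and miR-26b-5p at 0.167 and 0.095, against medians of 0.653 and 0.594. The last of the 3 was miR-16-1-3p for miR-27a-3p (0.181) and miR-98-5p for miR-27b-3p (0.108). Nearest to miR-24-3p were miR-134-5p (0.059), miR-30d-5p (0.083) and miR-192-5p (0.085), against a median of 0.555.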

How the data were processed

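The authors deposited, for each of 6 small RNA libraries, whole-number read counts per mature microRNA without normalization. They also deposited TPM values, which are the counts scaled to a sum of 1000000 per column (to within 2.74e-05) with no term for length. Per the submitters' processing notes, Bowtie and mm10 were used, with no version named. The sources used here state no strand setting, mismatch allowance, miRBase release or rule for reads with several matches. Per the labels' protocols, 3 µg of RNA went into each NEBNext library.

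Counts were fitted with edgeR 4.0.16 (R 4.3.3): filterByExpr at a minimum count of 10 kept 614 rows, with TMM scaling, a robust quasi-likelihood F test and Benjamini-Hochberg adjustment over these rows. Standard errors are the log2 change over the square root of F. Rows sharing a seed were compared with diffSpliceDGE, where 23 rows of the table with no RefSeq sequence joined a group by name. Ratios used a pseudocount of 0.5 counts for the log2 and exact two-sided permutation tests (scipy 1.17.1). The main edgeR fit and the diffSpliceDGE comparison were tested on simulated data, and the other steps across rows were not. Members, marker lists and tests were chosen with earlier results of these data known. All 8 members are named, the rows most like a member follow a fixed distance rule, and other arms were listed by name. Alternatives used RLE, upper-quartile or library-total scaling, no filter, DESeq2 1.42.0, limma voom 3.58.1, the replicate number as a block, and each library left out. Every pair of libraries within a group differed by more than sampling noise. P-values measure the spread between the libraries of a group, taken as separate mice from the design text. Reads carry no molecular identifiers, so counts are not independent molecules.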

Additional observations from a re-analysis of the deposited data

How the results depend on the processing

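miR-23a-3p and miR-23b-3p kept their direction and their calls under RLE, upper-quartile and library-total scaling, no filter, DESeq2, limma voom, the replicate block and without each library. miR-27b-3p had a log2 change of -0.43 with the upper quartile, -0.51 with no filter and -0.55 with the replicate block (edgeR adjusted p = 0.101, 0.0893 and 0.0526), and none of these passed. Without 1 library each it ran from -0.57 to -0.47, and miR-27a-3p from -0.96 to -0.73. miR-24-3p ran from -0.44 to -0.17, and miR-24-2-5p from -0.34 to 0.34 and stood at 0.00 with the upper quartile. The cause of these shifts was not tested. The fits without 1 library have fewer samples. The upper quartile moved the median log2 change of all rows by 0.11. Leaving out control-labelled library 3 moved it by 0.15. Over the table, 100 rows were higher and 142 lower; without 1 library these counts ran from 54 to 152 and from 87 to 179, lowest without SCI-labelled library 3 and highest without control-labelled library 3, with 63 higher without SCI-labelled library 1. With the replicate block they were 78 and 112, and the calls of miR-23b-5p (edgeR adjusted p = 0.0649) and miR-3074-1-3p (edgeR adjusted p = 0.0562) were lost too. Libraries sharing a number correlated at -0.257, 0.172 and -0.178 in their deviations from the group mean, and 1 of 3 correlated best with its own number, so the numbers were not taken to pair them. All 6 ratios kept their sign with a pseudocount of 1 count and without each library. Depth limits miR-23a-5p, with at most 8 counts in a library.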
